A study of Mus musculus with 15 samples.

Results

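The genes that make, break down, bind and sense retinoic acid were followed in mouse testis. The 9 genes were Aldh1a1, Aldh1a2, Rdh10, Cyp26b1, Crabp1, Stra6, Rara, Rarb and Rarg. They were taken by name, through their Entrez gene IDs, from the 23510 gene IDs of the deposited table. Expression was measured by RNA sequencing of poly(A) RNA and is given as FPKM, the fragments mapped to a gene scaled to its length and to the mapped total of the library. The table held 15 libraries in 5 groups of 3. Lentivirus was injected into the testes of ICR mice, an outbred stock, at 5 weeks of age, and testes were collected 10 days later. The groups M1, M3 and M5 received a mix of 3 short hairpin RNAs against the muscarinic acetylcholine receptor of that name, and the vector control MNC received a control hairpin. Con is labelled only as a control, and its handling is not given in the sources used here. The share of cells that took up the virus is not given either, and the libraries came from whole testis, so each value is a mean over all its cell types. The labels do not say which libraries came from which animals, so p-values measure only the spread between these libraries, which may be technical.

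Retinoic acid is made from vitamin A (retinol) by a pair of oxidation steps. Retinol dehydrogenases such as Rdh10 make retinaldehyde, retinaldehyde dehydrogenases such as Aldh1a1 and Aldh1a2 turn it into retinoic acid, and enzymes of the Cyp26 family break retinoic acid down. In the testis, retinoic acid drives spermatogonial differentiation and entry into meiosis, acting through nuclear receptors (Rara, Rarb and Rarg) that pair with retinoid X receptors.

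The FPKM of a library summed to between 470243 and 513817. The absolute depth is unknown, because the table holds no counts. The targeted receptor genes were low in all libraries. Chrm5 was at 0.22 to 0.37 FPKM in M5 and 0.23 to 0.43 in MNC (exact permutation test, two-sided, p = 0.5, n = 3 each). Chrm1 was at 0.09 to 0.14 FPKM in M1 and 0.1 to 0.11 in MNC (exact permutation p = 0.9, n = 3 each), and Chrm3 was at 0.04 to 0.11 FPKM in M3 and 0.01 to 0.05 in MNC (exact permutation p = 0.3, n = 3 each). No decrease of a targeted mRNA was detectable at these levels, and the groups are called by their labels. For protein, the paper reports a lower level of the M5 receptor in testes given the M5 hairpins, by Western blotting and immunofluorescence. Markers of a testis were present, with all 12 Sertoli, 7 Leydig, 7 spermatocyte and 7 spermatid markers above a mean of 1 FPKM. M5 replicate 3 stood apart, with summed Sertoli markers of 959 FPKM against 536 to 812 in the other 14 libraries, Leydig markers of 3168 against 659.5 to 2024, and red blood cell markers of 491 against 21.8 to 167. Of the 15 libraries, 5 correlated across genes at least as well with another group as with their own, namely M3 replicates 1 and 2 and MNC replicates 2 and 3 with M1, and M3 replicate 3 with M5 (mean r = 0.9781, against 0.978 with its own group).

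The retinaldehyde dehydrogenases were the most abundant of the 9 mRNAs and the receptor Rarb the least. Aldh1a1 averaged 276 FPKM over the 15 libraries and Aldh1a2 averaged 51.4 FPKM. Cyp26b1, Rdh10 and Rara formed a middle tier with means of 7.63, 7.56 and 7.42 FPKM, and neither neighbour in that order differed beyond the spread, since Cyp26b1 exceeded Rdh10 in 8 of 15 libraries and Rdh10 exceeded Rara in 8 of 15. Crabp1 averaged 4.44 FPKM, Stra6 2.61, Rarg 1.86 and Rarb 0.393. Crabp1 lay below Rara, Stra6 below Crabp1 and Rarg below Stra6 in 15 of 15 libraries each, although the ranges of these neighbours over all libraries overlapped. Rarb was below a mean of 1 FPKM, the filter used in the fits, and the other 8 genes passed it, among 14514 genes tested.

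**Figure D1:**
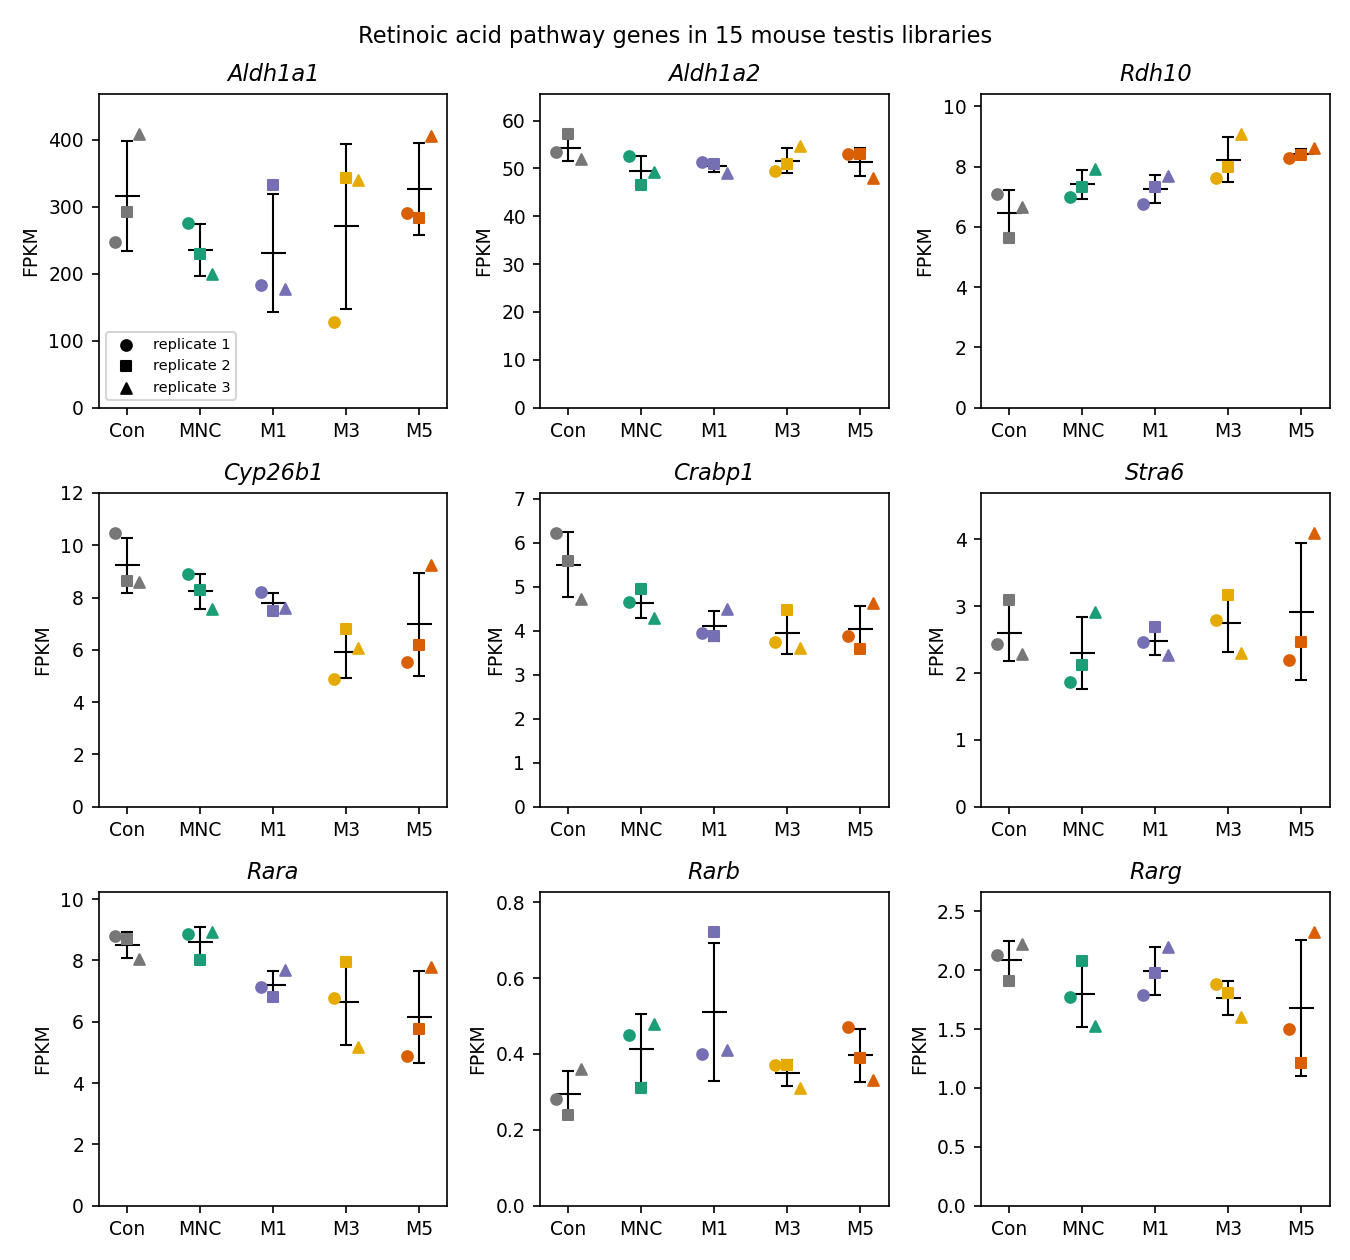
FPKM (vertical axis, linear, from 0) of each of the 9 genes in Con, MNC, M1, M3 and M5. Points are libraries, with the marker shape giving the replicate, and the bars show the mean ± SD (n = 3). Aldh1a2 stays between 46.5 and 57.1 FPKM throughout, while Rara lies below 8 FPKM in the 9 knockdown libraries and above 8 in the 6 libraries of Con and MNC.

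The 4 groups that received virus were first compared together with Con, whose handling is not known, so that the difference cannot be read as an effect of injection. The comparison sets the mean of MNC, M1, M3 and M5 (12 libraries) against Con (3 libraries). Of the 8 genes tested, 3 passed an adjusted p of 0.05 in limma, while 34.2% of all genes tested did. Rdh10 was higher and Crabp1 and Cyp26b1 were lower in injected testes. Of all genes tested, 11.8% passed as higher and 22.4% as lower. With each library centred on its median the split of all calls turned, to 2302 higher and 967 lower, and the median over all genes in this comparison was -0.10 on the log2 scale before centring. The median over the 8 genes was -0.19. Because testis RNA was measured whole, fewer cells of a type and less RNA per cell cannot be told apart in any of these values.

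Rdh10 (mm10 chromosome 1, 16105882 to 16132550), the dehydrogenase of the first step of retinoic acid synthesis, was at 7.11, 5.64 and 6.65 FPKM in Con replicates 1, 2 and 3. It was at 6.99, 7.32 and 7.93 FPKM in MNC, 6.77, 7.34 and 7.70 in M1, 7.63, 7.99 and 9.07 in M3, and 8.28, 8.38 and 8.62 in M5. The level was higher than in every Con library in 10 of the 12 injected libraries, and the ranges overlapped. The log2 difference, which here and below is on the log2(FPKM + 1) scale, was 0.24 ± 0.068 (SE; limma adjusted p = 0.0161; exact permutation p = 0.0132). That is 1.18 times in FPKM + 1, the unit of all such folds here, with a 95% interval of 1.07 to 1.31. The ratio of mean FPKM was 1.21. The call rested on Con replicate 2, the lowest library, since without it the log2 difference was 0.16 and the limma adjusted p 0.132. It held in 22 of 23 alternative fits. All 3 M5 libraries lay above every MNC library (log2 difference 0.17, limma adjusted p = 0.285) and above every M1 library (0.19, adjusted p = 0.194), while 16.6% and 18.8% of all genes were higher without overlap in these comparisons. Between M5 and M1, Rdh10 was the 1 gene of 8 past an unadjusted p of 0.05, against 25.4% of all genes. Rdh10 also varied over the 5 groups beyond the spread within them (limma F test, adjusted p = 0.0407), as did Crabp1 (adjusted p = 0.0497). These were 2 of the 8 genes, while 33.6% of all genes tested varied by this test. The call of the F test held in 10 of 23 alternative fits for Rdh10 and in 6 of 23 for Crabp1.

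Crabp1 (chromosome 9, 54764748 to 54773110) encodes a protein that binds retinoic acid inside the cell. It was at 6.21, 5.58 and 4.72 FPKM in Con, 4.66, 4.94 and 4.28 in MNC, 3.95, 3.88 and 4.49 in M1, 3.74, 4.48 and 3.60 in M3, and 3.89, 3.59 and 4.62 in M5. MNC replicate 2 alone among the injected libraries lay above the lowest Con library. The log2 difference from Con was -0.33 ± 0.0859 (SE; limma adjusted p = 0.0117; exact permutation p = 0.00879), or 0.797 times in FPKM + 1 with a 95% interval of 0.700 to 0.906. The ratio of mean FPKM was 0.759. The smallest p that 12 against 3 libraries allow is 0.0044. Without Con replicate 1 the limma adjusted p was 0.0920 and without Con replicate 2 it was 0.0572. The call of this comparison held in 21 of 23 alternative fits.

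Cyp26b1 (chromosome 6, 84571414 to 84593908), the enzyme that clears retinoic acid in the testis, was at 10.45, 8.63 and 8.61 FPKM in Con. It was at 8.89, 8.28 and 7.56 FPKM in MNC, 8.23, 7.50 and 7.59 in M1, 4.87, 6.80 and 6.07 in M3, and 5.54, 6.17 and 9.23 in M5. All but MNC replicate 1 and M5 replicate 3 of the 12 injected libraries lay below the lowest Con library. The log2 difference was -0.33 ± 0.119 (SE; limma adjusted p = 0.0496; exact permutation p = 0.0352), or 0.797 times in FPKM + 1 with a 95% interval of 0.666 to 0.953. The ratio of mean FPKM was 0.783. This call was at the threshold and held in 3 of 23 alternative fits, with a log2 difference of -0.22 (adjusted p = 0.106) when libraries were centred on their median.

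The promoters of both genes that were lower in injected testes are shown with the letters GGGCGG (a GC box, a site of Sp family factors, searched on both strands) in capitals. Each stretch is the 120 bases before the transcription start, from RefSeq on GRCm38.p6, written 5′ to 3′ on the strand of the gene. The Crabp1 stretch is at chr9:54764628-54764747 on the plus strand and the Cyp26b1 stretch at chr6:84593811-84593930 on the minus strand. The Cyp26b1 start of the promoter table lies inside the gene span given above, so that 98 of its 120 bases fall within that span.
Crabp1: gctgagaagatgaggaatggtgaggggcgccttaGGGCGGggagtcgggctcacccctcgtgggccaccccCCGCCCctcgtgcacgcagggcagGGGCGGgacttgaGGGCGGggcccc
Cyp26b1: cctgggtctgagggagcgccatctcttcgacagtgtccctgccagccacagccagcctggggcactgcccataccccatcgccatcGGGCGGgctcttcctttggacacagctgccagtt
Crabp1 held 4 GC boxes at 74.2% G and C, and Cyp26b1 held 1 at 65.0%. Of 32851 promoters in the table, 26.5% held a GC box in the same window. Neither stretch held a half-site of a retinoic acid receptor as spelled out below for Rarb.

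Between the vector control and Con, 0 of the 8 genes passed the adjusted threshold in limma, and 0 passed at an unadjusted p of 0.05, while 20.4% of all genes tested passed the adjusted threshold and 40.1% the unadjusted one. The values of Rdh10, Crabp1 and Cyp26b1 in this comparison were log2 differences of 0.18 (95% interval -0.05 to 0.41), -0.20 (-0.46 to 0.05) and -0.14 (-0.38 to 0.09). Rara differed by 0.01 (-0.16 to 0.18). The comparison shares the 3 Con libraries with that of all injected testes, so the values side by side are not independent.

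Markers of germ cells also differed between Con and the injected groups. Spermatid markers summed to 9702 to 19174 FPKM in Con and to 19321 to 27948 FPKM in the injected libraries. These ranges did not overlap but lay close. Prm1, Prm2, Tnp1 and Tnp2 made up most of each sum. Prm2 alone of the 7 did not overlap, at 1915 to 4656 FPKM in Con and 5486 to 9811 in the injected libraries. As higher, 5 of the 7 passed. Over all genes tested 11.8% passed as higher and 22.4% as lower, which also holds for the lists below. Of the 7 spermatocyte markers 1 was higher and 4 were lower, and Sertoli markers summed to 702 to 812 FPKM in Con and 536 to 959 in the injected libraries, with 2 of 12 lower. Epididymal markers summed to 15.7 to 36.3 FPKM in Con and 1.38 to 24.3 in the injected libraries, with 1 of the 2 tested lower. Of the other lists, 1 higher and 3 lower of 6 peritubular myoid markers passed, 1 lower of 7 Leydig, 1 higher of 6 macrophage, 1 higher of 4 adipocyte, 2 higher of 5 red blood cell, and none of 6 spermatogonial and 5 endothelial markers. None of these markers was at 0 in all libraries. Their part in the differences of Rdh10, Crabp1 and Cyp26b1 was not tested.

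**Figure D2:**
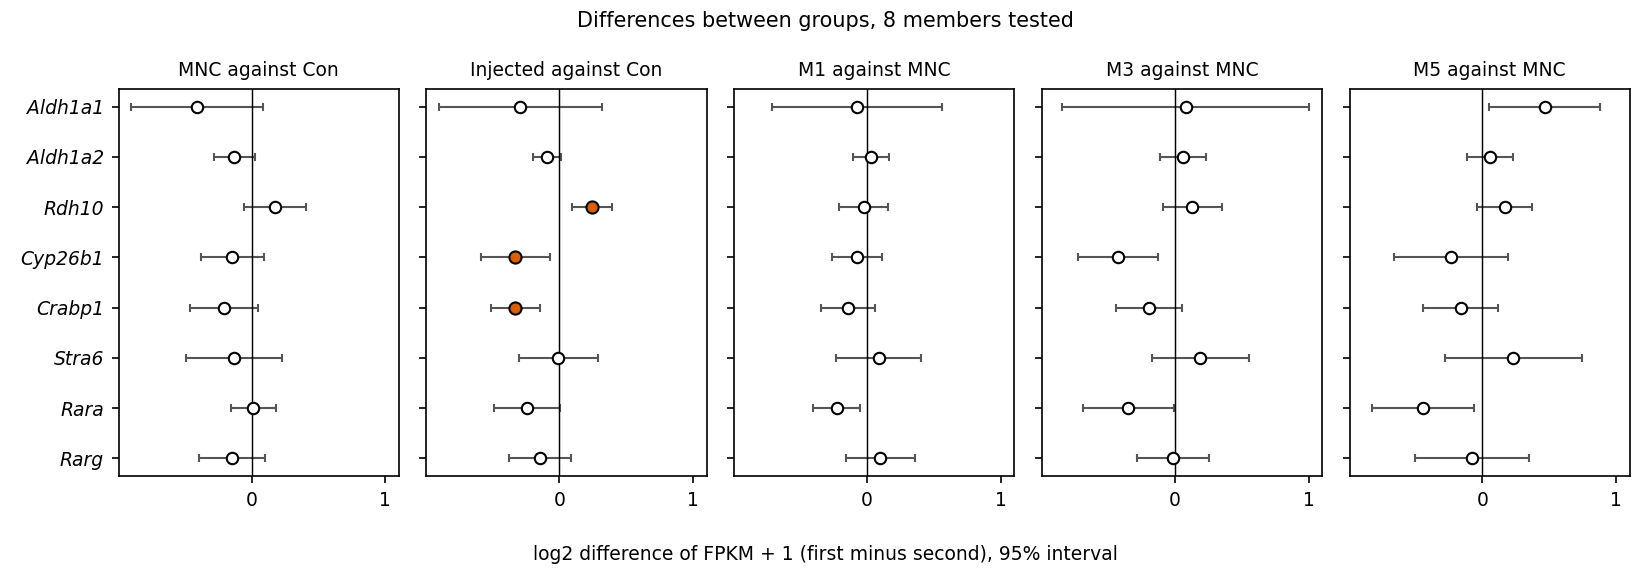
Differences between groups for the 8 genes tested, on the log2(FPKM + 1) scale (horizontal axis, first group minus second), with 95% intervals from limma. Filled points passed an adjusted p of 0.05. Rdh10, Cyp26b1 and Crabp1 are the filled points, all of them in the comparison of the injected testes with Con.

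Rara, the main receptor of the family by level, was lower in each of the 3 knockdown groups than in MNC, without passing the threshold. It held 71.2% to 81.6% of the summed FPKM of the 3 receptors in each library. Rara (chromosome 11, 98927800 to 98974942) was at 8.81, 8.71 and 8.03 FPKM in Con and 8.85, 8.02 and 8.91 in MNC. It was at 7.12, 6.81 and 7.69 FPKM in M1, 6.76, 7.95 and 5.17 in M3, and 4.87, 5.77 and 7.79 in M5. Every knockdown library thus lay below every library of MNC, though M3 replicate 2 (7.95 FPKM) came close to the lowest of them (8.02 FPKM).

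M5 against MNC sets the group given hairpins against M5 beside the group given the control hairpin, and is the main comparison of the study. Rara differed by -0.44 ± 0.158 (SE) on the log2 scale, or 0.735 times in FPKM + 1 (95% interval 0.565 to 0.955), with an unadjusted p of 0.0276 and a limma adjusted p of 0.146. The ratio of mean FPKM was 0.715. In this comparison 0 of the 8 genes passed the adjusted threshold, against 5.65% of all genes, and 2 passed at an unadjusted p of 0.05, against 24.9%. Without M5 replicate 3, in which Rara was highest of the 3, the log2 difference was -0.60 and passed (limma adjusted p = 0.0387). In that fit 1 of the 8 genes passed, against 6.52% of all genes. Rara passed in 1 of 14 alternative fits, and with one library left out its limma adjusted p ran from 0.0387 to 0.337. M1 against MNC gave -0.23 ± 0.0724 (adjusted p = 0.819), with 0 of 8 genes and 0% of all genes past the adjusted threshold, and 1 of 8 (Rara) and 5.94% of all genes past the unadjusted one. M3 against MNC gave -0.35 ± 0.143 (adjusted p = 0.518), with 0 of 8 genes and 0.00689% of all genes past the adjusted threshold, and 2 of 8 and 9.43% past the unadjusted one. The 3 comparisons share the MNC libraries and are not independent. For the group ranges, 6.97% of all genes were lower without overlap in M1, 10.6% in M3 and 15.5% in M5.

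The lowest Rara values were in M5 replicate 1, M3 replicate 3 and M5 replicate 2, and these libraries also had the highest summed spermatocyte markers (1055, 1075 and 1064 FPKM) and the lowest summed Sertoli markers (536, 555 and 607 FPKM). The next spermatocyte sums were lower, at 973 FPKM in M3 replicate 1. The plot of members against markers shows the same libraries at its right edge. Pgk2 held 54.9% to 58.5% of these spermatocyte sums, and Piwil1, another of the 7 markers, was low in them, at 97.1, 92.6 and 93.9 FPKM against 102 to 126 in MNC. Clu, the largest Sertoli marker in these libraries, was at 293, 319 and 331 FPKM against 373 to 430 in MNC. Wt1, another of the 12, was high in them, at 16.0, 16.4 and 18.8 FPKM against 12.8 to 15.7 in MNC. In M5 against MNC, 2 of the 7 spermatocyte markers passed as higher. Of the 12 Sertoli markers 7 were higher and 5 lower in that comparison, and none passed. Their part in the Rara values was not tested. The difference between knockdowns was tested directly, and Rara differed between M5 and M1 by -0.22 (95% interval -0.59 to 0.15, adjusted p = 0.418) and between M5 and M3 by -0.10 (-0.56 to 0.37, adjusted p = 0.807).

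**Figure D3:**
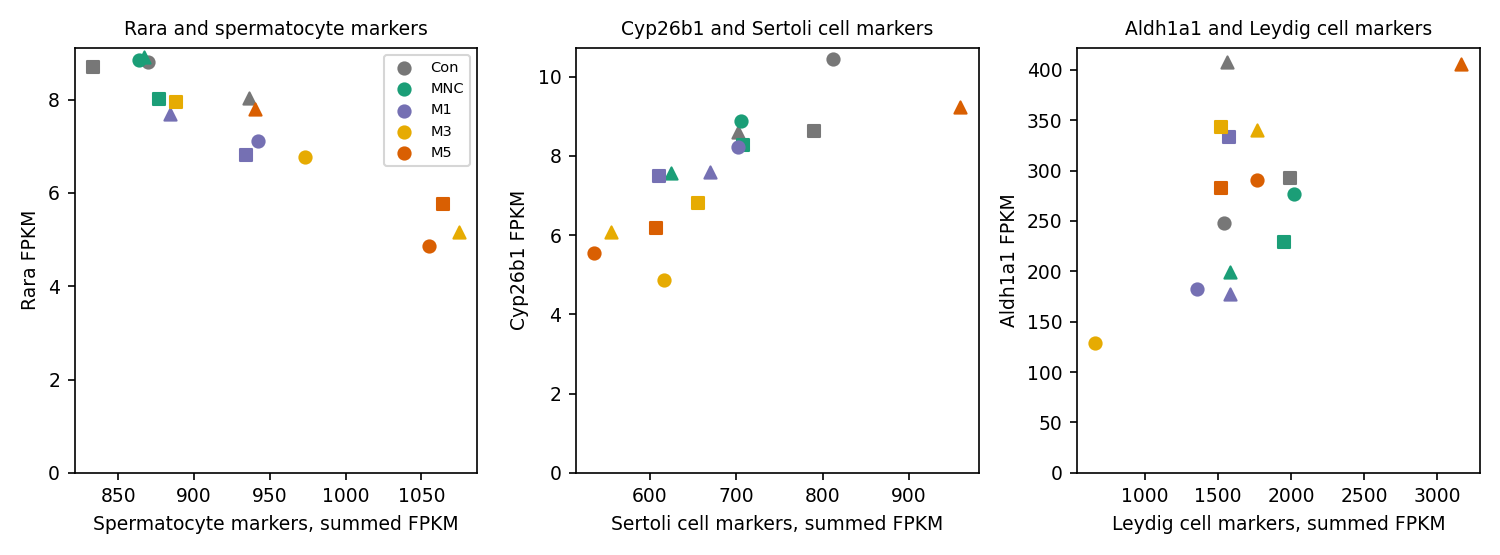
FPKM of a gene (vertical axis) against the summed FPKM of a list of cell type markers in the same library (horizontal axis), for Rara with 7 spermatocyte markers, Cyp26b1 with 12 Sertoli markers and Aldh1a1 with 7 Leydig markers. Points are the 15 libraries, coloured by group, with shapes for replicates. The 3 libraries with the highest spermatocyte sums, from 1055 to 1075 FPKM, have the 3 lowest Rara values, and M5 replicate 3 lies at the far right for Sertoli and Leydig markers.

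Cyp26b1 was lowest in the M3 group, where all 3 libraries (4.87 to 6.80 FPKM) lay below MNC (7.56 to 8.89 FPKM). The log2 difference of -0.43 ± 0.125 (SE) had an unadjusted p of 0.0123 and a limma adjusted p of 0.518, so it did not pass. In M5 the libraries split, with replicates 1 and 2 at 5.54 and 6.17 FPKM and replicate 3 at 9.23 FPKM, above every MNC library. M5 replicate 3 was the library with the highest Sertoli markers. In M3 replicates 1, 2 and 3, Cyp26b1 was at 4.87, 6.80 and 6.07 FPKM. Their Sertoli sums were 616, 656 and 555 FPKM, against 624 to 708 in MNC, so the lowest value was not in the library with the lowest sum. The part of Sertoli cells in these values was not tested. M5 against MNC gave -0.24 (95% interval -0.66 to 0.19, adjusted p = 0.457). M5 against M1 gave -0.16 (-0.57 to 0.25, adjusted p = 0.587), and without M5 replicate 3 it gave -0.36 and passed (limma adjusted p = 0.0456). In the fit without that library 1 of the 8 genes passed, against 11.6% of all genes. In M5 against M1, 0 of 8 genes passed with all libraries, against 6.75% of all genes, and in M5 against M3, 0 of 8 passed, against 0.0138% of all genes.

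The ratio of Rdh10 to Cyp26b1 FPKM, one synthesis enzyme over the enzyme of breakdown, put these 2 genes together within a library. It was 0.654 to 0.772 in Con, 0.786 to 1.05 in MNC, 0.823 to 1.01 in M1, 1.18 to 1.57 in M3 and 0.934 to 1.49 in M5. Con lay below every other group, M3 lay above Con, MNC and M1 without overlap, and M5 overlapped MNC, M1 and M3. Rdh10 was called higher and Cyp26b1 lower in the injected testes against Con, and Cyp26b1 was lowest in M3. The places of Con and M3 thus follow in part from the choice of these 2 genes. No share over other pairs of genes was taken. The ratio is one of mRNA levels and was not tested.

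Aldh1a1 (chromosome 19, 20492583 to 20643463) is a retinaldehyde dehydrogenase known from the somatic cells of the testis. Its SD on the log2 scale was 0.49 between libraries of a group and 0.25 between the group means. Means of 3 libraries spread less than single libraries, so these SDs are not directly comparable. Aldh1a1 was at 248, 293 and 408 FPKM in Con and 276, 229 and 200 FPKM in MNC. It was at 183, 333 and 177 FPKM in M1, 128, 343 and 341 in M3, and 290, 283 and 406 in M5. The highest library was 3.18 times the lowest. All 3 M5 libraries lay above MNC, where 16.6% of all genes were higher without overlap, and the log2 difference was 0.46 ± 0.174 (SE; unadjusted p = 0.0335, limma adjusted p = 0.160). M5 replicate 3, with the highest Leydig markers (3168 FPKM), had the second-highest Aldh1a1 value, and M3 replicate 1, with the lowest (659.5 FPKM), had the lowest. Other libraries did not follow the Leydig sums, since Con replicate 3, with the highest Aldh1a1 value, had a sum of 1560 FPKM and MNC replicate 1, with 276 FPKM of Aldh1a1, the next highest sum (2024 FPKM). Red blood cell markers were also higher in M5, with sums of 147.5 to 490.7 FPKM against 21.8 to 35.3 in MNC, and 3 of the 5 passed as higher. Without M5 replicate 3 the log2 difference from MNC was 0.30. The part of Leydig cells or of blood in these values was not tested. Aldh1a7, a close copy of Aldh1a1 in the mouse genome, was at 0.87 to 8.04 FPKM, and how reads shared by both genes were counted is not given in the sources used here.

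Aldh1a2 (chromosome 9, 71215789 to 71296243), a retinaldehyde dehydrogenase known from germ cells, was the steadiest of the genes. It was at 53.5, 57.1 and 52.0 FPKM in Con, 52.7, 46.5 and 49.2 in MNC, 51.3, 51.0 and 49.1 in M1, 49.5, 50.8 and 54.6 in M3, and 53.1, 53.1 and 48.0 in M5. Its coefficient of variation over the 15 libraries was 5.33%, against 29.99% for Aldh1a1. The differences from MNC were 0.03 in M1 (95% interval -0.10 to 0.16), 0.06 in M3 (-0.11 to 0.23) and 0.06 in M5 (-0.12 to 0.23) on the log2 scale. Aldh1a1 held 72.2% to 89.4% of the FPKM of both dehydrogenases, and its ratio to Aldh1a2 ran from 2.60 to 8.45 between libraries.

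Stra6 (chromosome 9, 58063793 to 58154004), the receptor that takes up retinol from its carrier in blood, was low in all groups. It was at 2.44, 3.09 and 2.28 FPKM in Con, 1.87, 2.12 and 2.91 in MNC, 2.47, 2.69 and 2.27 in M1, 2.79, 3.17 and 2.30 in M3, and 2.2, 2.46 and 4.09 in M5. The highest value was again M5 replicate 3. The groups overlapped in all comparisons, and the difference of the injected libraries from Con was -0.01 on the log2 scale (95% interval -0.30 to 0.29, adjusted p = 0.976).

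Rarg (chromosome 15, 102234938 to 102257522), the receptor known from undifferentiated and differentiating spermatogonia, was at 2.13, 1.91 and 2.22 FPKM in Con, 1.77, 2.08 and 1.53 in MNC, 1.79, 1.98 and 2.2 in M1, 1.88, 1.81 and 1.60 in M3, and 1.5, 1.21 and 2.32 in M5. Both the lowest and the highest library were in M5. The difference from Con over all injected libraries was -0.14 (95% interval -0.37 to 0.08, adjusted p = 0.298), and M5 differed from MNC by -0.08 (-0.51 to 0.35, adjusted p = 0.829).

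Rarb (chromosome 14, 16430839 to 17082331), a receptor gene that retinoic acid is known to induce through its own promoter, lay below the filter of the fits. It was at 0.28, 0.24 and 0.36 FPKM in Con, 0.45, 0.31 and 0.48 in MNC, 0.40, 0.72 and 0.41 in M1, 0.37, 0.37 and 0.31 in M3, and 0.47, 0.39 and 0.33 in M5. Of the 12 injected libraries, 9 lay above the highest Con library (exact permutation p = 0.022, not adjusted, two-sided). In limma with a filter of 0.1 FPKM, which keeps Rarb, its log2 difference was 0.13 (unadjusted p = 0.0744, adjusted p = 0.168), where 39.4% of all genes had an unadjusted p under 0.05, and with no filter the adjusted p was 0.157. MNC and Con overlapped (exact permutation p = 0.2), where the smallest p for 3 against 3 is 0.1. At these levels the step of the table, 2 decimals, is itself a visible part of each value.

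The Rarb promoter is shown because it holds the known type of retinoic acid response element. Half-sites of the receptors were searched on both strands as AGGTCA, as its known variants AGTTCA with GGGTCA, and as the mixed form GGTTCA, and they are in capitals. The stretch is the 120 bases before the start, at chr14:16575477-16575596 on the minus strand of GRCm38.p6, from RefSeq. The start is an internal one, and all 120 bases lie within the gene span given above.
Rarb: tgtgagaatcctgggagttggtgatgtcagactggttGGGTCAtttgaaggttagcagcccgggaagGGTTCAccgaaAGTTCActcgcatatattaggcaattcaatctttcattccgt
The last pair of half-sites forms a direct repeat with 5 bases between, and its first base lies 53 bases before the start. Such a repeat was found in 1 of the 16 promoters (250 bases before to 50 after a start) listed for 8 of the genes, and in 32 of all 32851 promoters (0.097%). A single half-site was common, in 6 of these 16 promoters and in 43.7% of all. In windows of 120 bases the shares were 0.033% for the repeat and 20.1% for a half-site. A match in these letters is a description and not a measured site.

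Other genes of the pathway were read from lists, 21 further enzymes of retinoid metabolism, 8 further carriers, 9 retinoid X receptors and cofactors, and 10 genes known to be induced by retinoic acid, of which 14, 4, 8 and 8 passed the filter. In the injected testes against Con, 1 enzyme was higher and 1 lower, no carrier passed, 1 cofactor was higher and 1 lower, and 1 induced gene was higher and 2 were lower. Of all genes tested, 11.8% were higher and 22.4% lower in this comparison. The medians were -0.08, -0.19, -0.07 and -0.30 on the log2 scale in that order, against -0.10 over all genes tested. Bco1, which cleaves beta-carotene to retinaldehyde, was at 9.49 to 10.9 FPKM in Con and 14.2 to 21.9 in the injected libraries (log2 difference 0.68 ± 0.0884, SE; limma adjusted p = 0.000289). Dgat1, an acyltransferase that can esterify retinol, was at 46.5 to 47.7 FPKM in Con and 30.2 to 44.8 in the injected libraries (-0.32 ± 0.0604; adjusted p = 0.00219, and 0.0567 with centring).

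Among the induced genes that passed, Rec8 and Stra8, both of meiotic entry, went in opposite directions. Bhmg1 (Meiosin), also on that list, did not pass. It was at 5.45 to 5.93 FPKM in Con and 3.43 to 5.97 in the injected libraries. Rec8, a meiotic cohesin, was at 25.6, 25.2 and 23.9 FPKM in Con and at 29.4 to 35.0 FPKM in the injected libraries (log2 difference 0.35 ± 0.0502, SE; limma adjusted p = 0.000451). Stra8, which retinoic acid induces at the start of meiosis, was at 8.31, 10.5 and 8.38 FPKM in Con and 5.99 to 8.96 in the injected libraries (-0.31 ± 0.0951; adjusted p = 0.0241, and 0.0722 with centring). Rarres1, a retinoid-responsive gene, was at 13.1 to 25.9 FPKM in Con and 3.54 to 13.5 in the injected libraries (-1.05 ± 0.329; adjusted p = 0.0269, and 0.0587 with centring). Of the cofactors, the coactivator Ncoa1 was higher by 0.26 (adjusted p = 0.0281) and the coactivator Ncoa3 lower by -0.24 (adjusted p = 0.0207, and 0.126 with centring). Fabp5, a fatty acid binding protein that can carry retinoic acid, varied over the 5 groups (limma F test, adjusted p = 0.0170), with 11.01 ± 2.47 FPKM (SD, n = 3) in Con, 6.52 ± 1.21 in MNC and 12.8 ± 3.74 in M5.

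In the comparisons of 3 against 3, few genes of the 4 lists passed. In MNC against Con, where 20.4% of all genes tested passed, Bco1 (0.80 on the log2 scale, adjusted p = 0.0209) and Rec8 (0.29, adjusted p = 0.0254) were higher and the alcohol dehydrogenase Adh4 lower (-0.73, adjusted p = 0.0316) in limma. These calls held in 11, 9 and 4 of 14 alternative fits. In M5 against MNC, where 5.65% of all genes passed, Adh4 was higher (6.16 ± 0.881 against 3.09 ± 0.651 FPKM, SD, n = 3; log2 difference 0.81, limma adjusted p = 0.0398) and Dgat1 lower (31.4 ± 1.65 against 42.4 ± 2.59 FPKM; -0.42, adjusted p = 0.0317), and no carrier, cofactor or induced gene passed. The call of Adh4 held in 2 of 14 alternative fits and that of Dgat1 in 5 of 14. Dgat1 was also lower in M5 than in M1 (-0.32, adjusted p = 0.0327), a call that held in 5 of 14. None of the 4 lists had a gene past the threshold in M1 against MNC, M3 against MNC or M5 against M3.

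**Figure D4:**
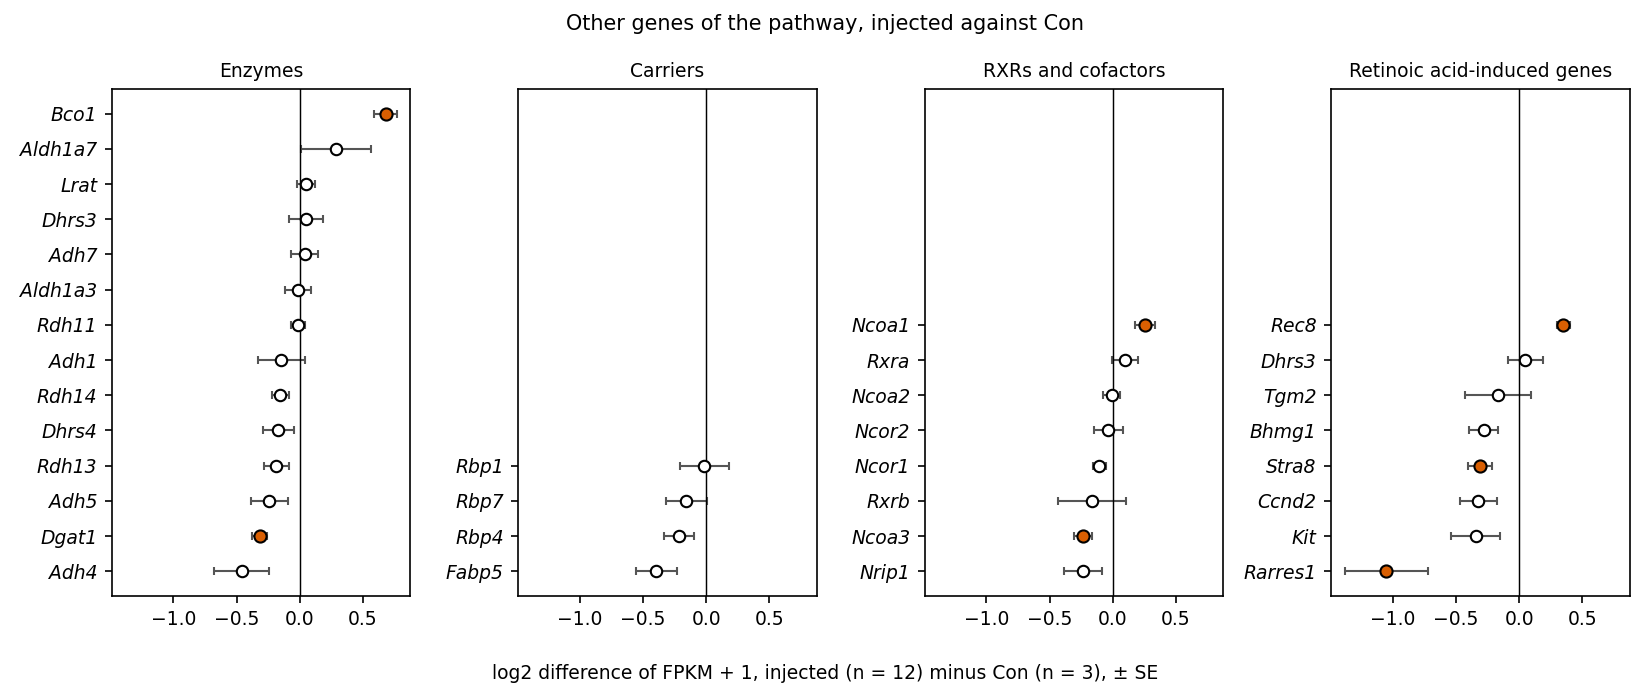
Log2 difference of FPKM + 1 between the 12 injected libraries and the 3 Con libraries (horizontal axis, injected minus Con, ± SE from limma) for the other pathway genes that passed the filter, by list. Filled points passed an adjusted p of 0.05 and are Bco1, Dgat1, Ncoa1, Ncoa3, Rec8, Stra8 and Rarres1.

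The genes whose levels went most closely with each of the 8 were found by Pearson r of log2(FPKM + 1) over the 15 libraries, among the named genes tested. Rara went most closely with Arf5 (r = 0.961), Crabp1 with Cep250 (0.956) and Plppr3 (0.934), and Cyp26b1 with Mov10 (0.949) and Acbd4 (0.931). Aldh1a2 went with Galnt3 (0.895) and Mdh1b (0.893), Aldh1a1 with Pgrmc1 (0.881) and Fkbp5 (0.846), and Rdh10 with Phactr1 (0.880) and Tsga10ip (0.872). Rarg went with Peak1 (0.876), and Stra6 with B4galt6 (0.807) and Pla2g7 (0.799). Each of these values was picked as among the highest of all the named genes tested. By Spearman rho over the same libraries, Arf5, Cep250, Phactr1 and Peak1 alone of those named stayed among the 2 closest. For Stra6 the rho was 0.640 with B4galt6 and 0.575 with Pla2g7. Among the genes themselves, Cyp26b1 and Crabp1 were most alike (r = 0.793), followed by Crabp1 and Rara (0.758) and Cyp26b1 and Rara (0.748). These values describe 15 libraries that share group, cell makeup and base composition effects.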

How the data were processed

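RNA was sequenced from 15 mouse testis libraries. Per the study's methods, the authors mapped reads to reference genes with SOAPaligner, and the deposited table gives FPKM to 2 decimals, on genome build mm10 per the labels. The annotation, and how reads shared between genes were counted, are not given in the sources used here. The methods name RPKM for expression values, while the columns are named FPKM. Titles gave the groups and replicate numbers, also for M5 replicate 2, whose description points to the column of the first M5 library. Testis was taken from the titles, although the extraction protocol mentions sperm.

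Gene names came from a RefSeq gene table of GRCm38.p6, which matched 21143 of 23510 IDs (89.9%), as did gene coordinates and promoters. The study's test models counts, so limma 3.58.1 (R 4.3.3; lmFit, eBayes with trend) was fitted to log2(FPKM + 1) of the 14514 genes with a mean FPKM of at least 1. This scale understates changes of low genes. Pairwise fits held the 2 groups compared, and the contrast of injected testes with Con held all 5 groups. Benjamini-Hochberg adjustment ran over all genes tested, two-sided, with calls at 0.05. Genes under the filter and single values were compared by exact permutation over libraries (scipy 1.17.1).

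All 9 genes are named, with list genes called in any comparison (up to 4 per list) and the 2 genes most like each, of which some are not reported here. Members and lists were chosen with earlier results of these data known. The lists were 4 of pathway genes and 11 of markers of Sertoli, Leydig, peritubular myoid, macrophage, endothelial, spermatogonial, spermatocyte, spermatid, epididymal, adipocyte and red blood cells. The fits were tested on simulated data. Without counts, no counting interval could be given.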

Additional observations from a re-analysis of the deposited data

Results flagged for a closer look

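Dgat1, an acyltransferase that can esterify retinol, differed between the M5 and M1 knockdowns when these were compared directly, by -0.32 on the log2 scale (limma adjusted p = 0.0327), with 31.4 ± 1.65 FPKM (SD, n = 3) in M5 and 39.5 ± 1.60 in M1, lower in 3 of 3 M5 libraries than in every M1 library. The call held in 5 of 14 alternative fits, with log2 differences from -0.39 to -0.26. Of the 8 retinoic acid genes tested, none passed the adjusted threshold in M5 against M1 or in M5 against M3 with all libraries in the fit, and M1 and M3 were not compared with each other.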

How the results depend on the processing

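Over all alternatives, 777 of 856 differences of single genes kept their direction and side of the threshold, 23 lost a call, 4 gained one and 52 turned. The cause was not tested. Only the calls of Rdh10, Crabp1 and Cyp26b1 in the injected testes against Con could be lost. They held in 22, 21 and 3 of 23 alternative fits. The other differences had no call to lose. The largest difference that turned was Aldh1a1 in M5 against M3 (0.38 with all libraries). The alternatives were a pseudocount of 0.1, a filter of 0.1 or none, centring on the median, no trend, a single fit of all groups, a replicate block and each library left out. Removal of the trend with GC content and exclusion of M3 replicate 3 with M5 replicate 3 were chosen after seeing the data.

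Of the genes tested, 3 passed in the injected testes against Con. The number was 0 to 4 with one library left out, with 0 without Con replicate 2, 1 without Con replicate 1 and 4 without M5 replicate 3. It was 4 without both libraries named above, when Rara passed (-0.25, limma adjusted p = 0.0111). Of all genes tested, 19% passed without Con replicate 2 and 20.1% without Con replicate 1. The share was 44.6% without M5 replicate 3 and 46.9% without both libraries. The number of the 8 genes was 0 to 1 in M5 against MNC and in M5 against M1 with one library left out. It was 1 without M5 replicate 3, when 6.52% and 11.6% of all genes passed. In the F test over the 5 groups (2 genes) it was 0 with a filter of 0.1 or with no filter, 1 after GC trend removal, centring or a replicate block, and 0 to 3 with one library left out. In MNC against Con, M1 against MNC, M3 against MNC and M5 against M3 it was 0 under every alternative run.

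Differences that turned with centring were Aldh1a2 (0.013), Stra6 (0.10) in the injected testes, Rdh10 (0.0076) in M1 against MNC, Rarg (0.053) in M3 against MNC, Aldh1a2 (-0.045) in M5 against M1, Rdh10 (-0.070), Crabp1 (-0.077), Stra6 (-0.066) in M5 against M3. Those that turned with the GC trend removed were Stra6 (0.11) in the injected testes, Rarg (0.12) in M3 against MNC, Rarg (0.077) in M5 against MNC, Crabp1 (0.051) in M5 against M1, Rdh10 (-0.046) in M5 against M3. With one library left out, the ranges that crossed 0 were as follows. For MNC against Con, they were those of Rara (-0.026 to 0.055). For the injected testes, they were those of Stra6 (-0.071 to 0.089). For M1 against MNC, they were those of Aldh1a1 (-0.37 to 0.083), Aldh1a2 (-0.012 to 0.075), Rdh10 (-0.062 to 0.019), Stra6 (-0.0084 to 0.21). For M3 against MNC, they were those of Aldh1a1 (-0.15 to 0.55), Rarg (-0.081 to 0.061). For M5 against MNC, they were those of Rarg (-0.24 to 0.049). For M5 against M1, they were those of Crabp1 (-0.11 to 0.040), Stra6 (-0.062 to 0.27). For M5 against M3, they were those of Aldh1a1 (-0.087 to 0.62), Aldh1a2 (-0.037 to 0.041), Rdh10 (-0.014 to 0.10), Cyp26b1 (-0.0039 to 0.32), Crabp1 (-0.056 to 0.10), Stra6 (-0.17 to 0.17), Rara (-0.26 to 0.033), Rarg (-0.23 to 0.062).

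Replicate numbers did not pair the libraries. Deviations from the group means correlated between same-numbered libraries with r from -0.40 to 0.19 (median 0.0072), and between others from -0.29 to 0.36. With the replicate block, genes called fell from 2967 to 10 in MNC against Con, from 820 to 14 in M5 against MNC and from 980 to 39 in M5 against M1, and were 4417 of 4962 in the injected testes (2 of the genes followed here) and 3551 of 4878 in the F test. Counts over all genes also moved by over 1.5 times with no filter (1740 in MNC against Con, 447 in M5 against MNC, 630 in M5 against M1), centring (1869, 182, 252 and 3269 in the injected testes), no trend (215 and 384), one fit of all groups (2424 in M5 against MNC) and the GC trend removed (106 and 118). With one library left out they were 8 (without Con replicate 1) to 2497 in MNC against Con, 35 (without M5 replicate 2) to 946 in M5 against MNC, 56 (without M1 replicate 1) to 1690 (without M5 replicate 3) in M5 against M1, and 2752 (without Con replicate 2) to 6470 (without M5 replicate 3) in the injected testes, so the shares of all genes called move with single libraries too. In M1 and M3 against MNC and M5 against M3 they were 0 to 6, and up to 188 with one library left out.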
